A study of Sus scrofa domesticus with 4 samples.

Results

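The genes described here build and anchor the contractile apparatus of smooth muscle cells: ACTA2, DES, MYL9, MYL6, TAGLN, CNN1, TPM1, TPM2, CSRP1 and VCL. They were chosen by name, as all array probes whose RefSeq accession belongs to 1 of these 10 pig genes. Such probes were found for 8 genes, 45 probes in all out of 43603 on the array, and TAGLN and CSRP1 were not analysed here. All 45 probes were well above background in both RNAs on all 4 arrays, none was saturated, and 44 could be tested. The label of the tissue and its markers thus went together, with ACTA2, DES and CNN1, which are markers of smooth muscle though not each of it alone, all measured. Probes named here for MYH11, ACTG2, LMOD1 or CALD1 were not found, so these further smooth muscle markers were not analysed here.

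The study exposed the myometrium to adiponectin, an adipose tissue hormone, and measured gene expression. The myometrium is the muscle wall of the uterus, taken here in early pregnancy. Explants came from the middle of the uterine horns of 4 mature gilts (Large White x Polish Landrace, 7 to 8 months old) on days 15 to 16 of gestation. After 2 h of preincubation, treated slices received 10 µg/ml of adiponectin for 24 h, and control slices were kept as long with nothing added. Each of the 4 Agilent arrays held 1 treated and 1 control RNA, and the dyes were swapped on arrays 2 and 4, where Cy3 marked the treated RNA in place of Cy5. The gilts were separate animals, but the labels tie no array to a gilt and do not say that both RNAs of an array shared one, so the spread between arrays may hold technical parts. Whole tissue was measured, and fewer muscle cells cannot be told apart from less RNA per muscle cell.

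Smooth muscle contracts when myosin pulls on actin filaments. Calcium and calmodulin switch on myosin light chain kinase, which phosphorylates the regulatory light chain of myosin and so permits the pull. Tropomyosin lies along the actin filament, calponin restrains the myosin motor, desmin filaments link the contractile units, and vinculin ties actin to the membrane at dense plaques. In the pregnant uterus this machinery is kept in a quiet state until labour.

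Signals well above background made up 46.1% to 51.0% of the spots in Cy3 and 54.9% to 63.1% in Cy5. Outlier marks were on 128 spots of array 4, against 32 to 58 on arrays 1 to 3. The median log2 ratio over the 22129 tested probes lay between -0.02 and 0.01 on every array, so the ratios below are relative to a centre near 0. Across tested probes, Pearson's r between pairs of arrays ran from -0.31 (arrays 2 and 3) to 0.25 (arrays 2 and 4). Probes are not independent replicates, and each ratio still holds its probe's dye offset. The number of arrays limited the precision, and a typical probe's 95% interval was its change plus or minus 0.39 (log2, the median over probes).

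No contractile gene was called as changed by adiponectin. Of the 8 genes, 0 were called at a limma adjusted p under 0.05, as were 0% of all 22129 tested probes. At an unadjusted p under 0.05 the count was also 0 of 8 genes and 0 of 44 probes, against 5.71% of all tested probes (3.79% higher and 1.92% lower). The fitted log2 change was above 0 for 4 genes (ACTA2, DES, TPM1 and VCL) and below 0 for 4 (MYL9, MYL6, CNN1 and TPM2). Its median was 0.00, ranging from -0.26 for MYL9 to 0.34 for VCL, beside a median of 0.00 over all tested probes.

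What the genes did show was a shared direction on arrays 1 and 3, with a size that varied by gene. Their SD over arrays ran from 0.31 to 1.06 with a median of 0.52, beside a median of 0.34 over all tested probes. All 8 genes were lower in treated than in control RNA on array 1, with ratios from -0.91 to -0.11 and a median of -0.59, where 48.6% of all tested probes were below 0. All 8 were higher in treated RNA on array 3, with ratios from 0.12 to 1.58 and a median of 0.60, where 51.4% of all tested probes were above 0. On array 2 the median was -0.18, and 6 of 8 genes lay below 0 (51.2% of all tested probes). On array 4 it was 0.05, and 4 of 8 lay above 0 (47.1% of all tested probes). A ratio below 0 on array 1 together with one above 0 on array 3 was found for 43 of the 44 probes, against 26.3% of all tested probes. The 8 genes are not independent of each other, and this pattern was picked out after the values were seen, so the count describes these arrays and is not a test.

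**Figure D1:**
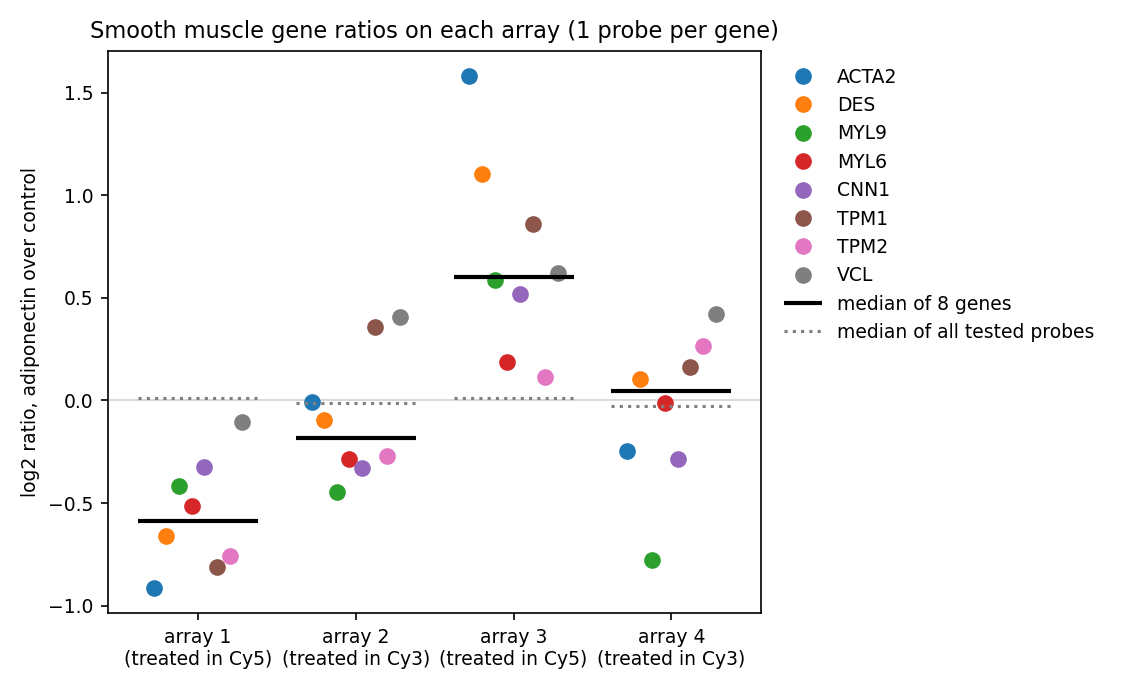
The log2 ratio of adiponectin-treated over control RNA is plotted for 8 smooth muscle genes (1 probe each, coloured points) on each of the 4 arrays, with the median of the 8 genes (black line) and of all tested probes (dotted line). All 8 points lie below 0 on array 1 and above 0 on array 3, while the dotted line stays near 0 throughout.

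ACTA2, the smooth muscle alpha-actin of the thin filament, varied most. Levels are given as log2 of the scanner's processed signal relative to a scale set by each array, so that treated minus control equals the log2 ratio. ACTA2 stood at 7.19, 7.95, 8.40 and 8.54 in treated RNA on arrays 1 to 4, against 8.10, 7.96, 6.82 and 8.78 in control RNA. Treated RNA was low on array 1, control RNA was low on array 3, and the ranges of the groups overlapped. The log2 change was 0.10 ± 0.39 (SE, n = 4 arrays) with a 95% interval from -0.87 to 1.07, which runs from 0.548-fold to 2.11-fold (limma adjusted p = 0.973). The other probes of ACTA2 gave the same order, from -1.49 to -1.03 on array 1 and from 1.32 to 1.60 on array 3. The brightest probe of ACTA2 carried an outlier mark on array 4 and was not tested. Its ratio there was 0.43 with the marked spot, where the tested probes lay between -0.42 and -0.09. ACTA1 and ACTC1, the skeletal and cardiac alpha-actins, are close copies of ACTA2 in their coding sequence, and their probes followed it. ACTA1 stood at -1.22, 0.10, 1.21 and -0.28 on arrays 1 to 4 and ACTC1 at -1.21, -0.11, 1.60 and 0.18. Whether the 3 actins share signal on these probes was not tested.

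Both tropomyosins sit on the same filament. TPM1 had ratios of -0.81, 0.36, 0.86 and 0.16 on arrays 1 to 4, with a log2 change of 0.14 ± 0.28. Its levels were 5.05, 5.76, 6.12 and 6.38 in treated RNA, against 5.86, 5.40, 5.26 and 6.22 in control RNA, so treated RNA was the higher on 3 of 4 arrays and the ranges overlapped. TPM2 had ratios of -0.76, -0.27, 0.12 and 0.26, with a log2 change of -0.16 ± 0.20. Its levels were 6.67, 7.55, 7.32 and 7.64 in treated RNA, against 7.43, 7.82, 7.21 and 7.38 in control RNA. On array 3, where ACTA2 was at 1.58, the 5 probes of TPM2 gave only 0.01 to 0.26. The fitted changes of TPM2 were below 0 for all 5 probes, from -0.30 to -0.16, and 20 of 21 TPM1 probes were above 0, up to 0.25. The difference between the tropomyosins was not tested.

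The 21 probes of TPM1, all annotated to 1 RefSeq transcript, fell into different patterns. TPM1 is known for alternative splicing, and the position of a probe in the transcript is not used here. On array 2, 12 probes lay above 0 (0.12 to 0.36) and 9 below 0 (-0.46 to -0.07). The 12 were also the lower ones on array 1, at -0.82 to -0.45, where the 9 lay between -0.28 and -0.05. On array 3 the 12 lay at 0.79 to 0.94 and the 9 at 0.47 to 0.64, with no overlap. On array 4 they overlapped, at 0.05 to 0.36 for the 12 and -0.14 to 0.43 for the 9. The 12 were mostly the brighter probes, with mean levels from 2.15 to 5.76, against -0.13 to 3.00 for the 9. The fitted log2 changes overlapped, at 0.10 to 0.25 for the 12 and -0.03 to 0.14 for the 9. This split was made on the array 2 values and has no test, and the part of brightness in it was not tested.

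**Figure D2:**
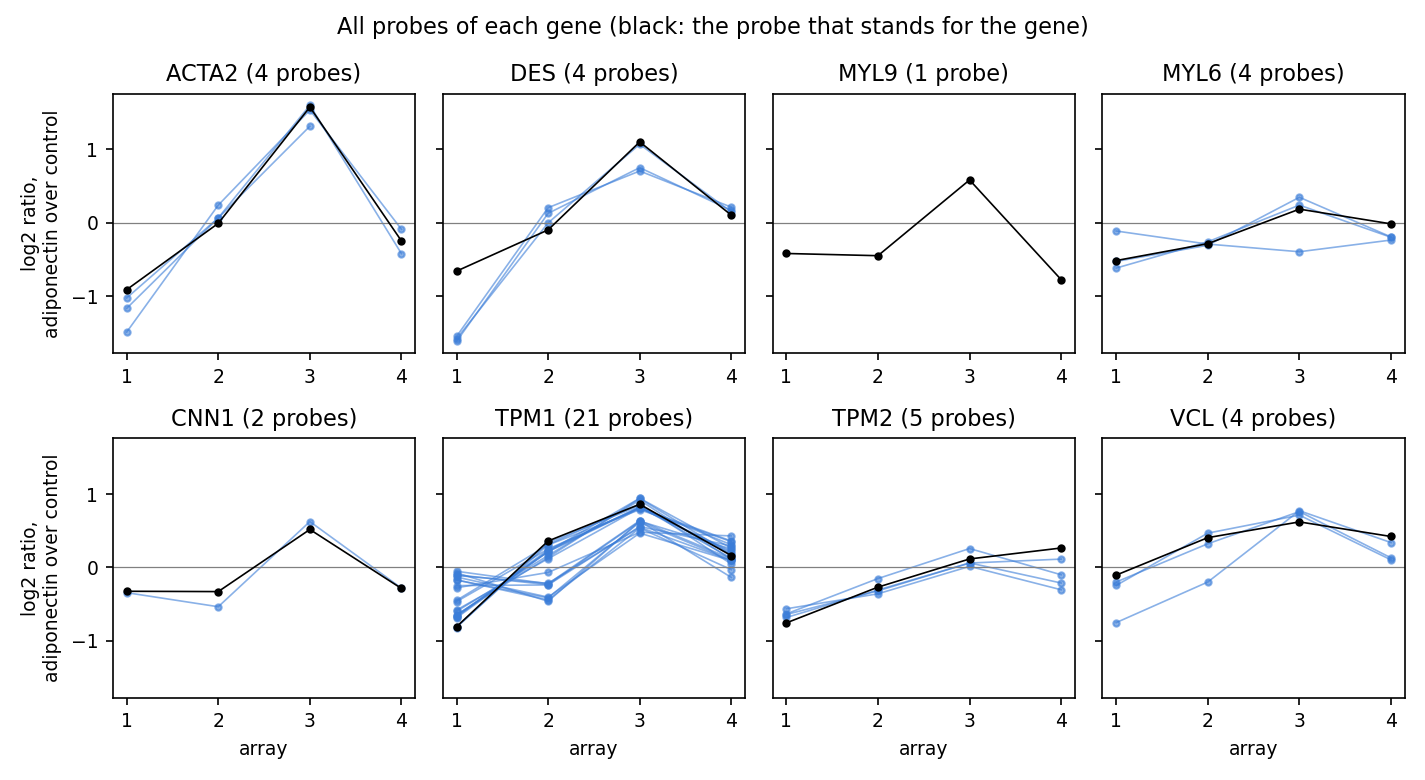
The log2 ratio of adiponectin-treated over control RNA is plotted by array for all 45 probes of the 8 genes, 1 panel a gene, with the probe that stands for the gene in black and the others in blue. Most lines climb to array 3, the TPM1 lines form an upper and a lower bundle on array 2, and 1 MYL6 line stays below 0 on all 4 arrays.

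CNN1, the calponin that is typical of differentiated smooth muscle, was below 0 on every array but array 3. Its ratios were -0.33, -0.33, 0.52 and -0.29, and the second CNN1 probe gave -0.34, -0.54, 0.63 and -0.28. Levels of CNN1 were 6.55, 6.96, 7.10 and 7.06 in treated RNA, against 6.87, 7.29, 6.59 and 7.35 in control RNA. Array 3 was the array with low control RNA, and the other 3 arrays had lower treated than control RNA. The log2 change over all 4 arrays was -0.11 ± 0.18 (limma adjusted p = 0.941).

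Among the light chains of myosin, MYL9, the regulatory chain that myosin light chain kinase phosphorylates, had the lowest fitted change. MYL9 stood at 7.48, 7.52, 7.79 and 7.79 in treated RNA, against 7.90, 7.96, 7.21 and 8.57 in control RNA. The treated values spanned little and lay inside the range of the control values. Ratios were -0.42, -0.45, 0.58 and -0.78, with a log2 change of -0.26 ± 0.20 and an interval from -0.77 to 0.24 (limma adjusted p = 0.878). The dye offset fitted for MYL9 was 0.35, the highest of the 8 genes, whose offsets ran from -0.16 upwards. A single probe measured MYL9.

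MYL6, the essential light chain shared by smooth muscle and non-muscle myosin, varied little among arrays. Its ratios were -0.51, -0.28, 0.19 and -0.01, with an SD of 0.31 and a log2 change of -0.16 ± 0.17 (limma adjusted p = 0.908). Levels were 7.34, 7.97, 7.92 and 8.21 in treated RNA, against 7.85, 8.26, 7.73 and 8.22 in control RNA, in overlapping ranges. Of the 4 MYL6 probes, 3 followed this course, and the dimmest stood at -0.11, -0.29, -0.39 and -0.23. That probe was the 1 member probe below 0 on all 4 arrays, a sign pattern held by 6.22% of all tested probes, and none was above 0 on all 4 (6.36%), so 1 of 44 had the same sign throughout (12.6%). It was also the 1 probe of the set not above 0 on array 3.

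DES, the muscle intermediate filament protein desmin, followed ACTA2. Its levels were 7.56, 8.65, 8.64 and 8.77 in treated RNA, against 8.22, 8.74, 7.54 and 8.67 in control RNA. Treated RNA was low on array 1 and control RNA was low on array 3, and both groups were high on arrays 2 and 4. The ratios were -0.66, -0.10, 1.10 and 0.10, with a log2 change of 0.11 ± 0.29 (limma adjusted p = 0.965). The other 3 DES probes were lower on array 1, at -1.62 to -1.55, and their fitted changes were below 0, from -0.14 to -0.09. The direction of DES therefore depended on the probe, and the mean of its 4 probes gave -0.06.

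VCL, the dense plaque protein vinculin, had the highest fitted change and the smallest p of the set. Its levels were 5.50, 5.47, 5.89 and 6.88 in treated RNA, against 5.60, 5.07, 5.27 and 6.46 in control RNA. Treated RNA was higher on arrays 2, 3 and 4 by 0.41, 0.62 and 0.42, and array 1 gave -0.11. Array 4 was high in both RNAs, and the ranges of the groups overlapped. The log2 change was 0.34 ± 0.17 (SE, n = 4 arrays), a fold of 1.26 with an interval from 0.946-fold to 1.68-fold (limma adjusted p = 0.856). The other bright VCL probes gave 0.25 and 0.26, and the dimmest gave 0.04. Without array 3 the change of VCL was 0.15.

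**Figure D3:**
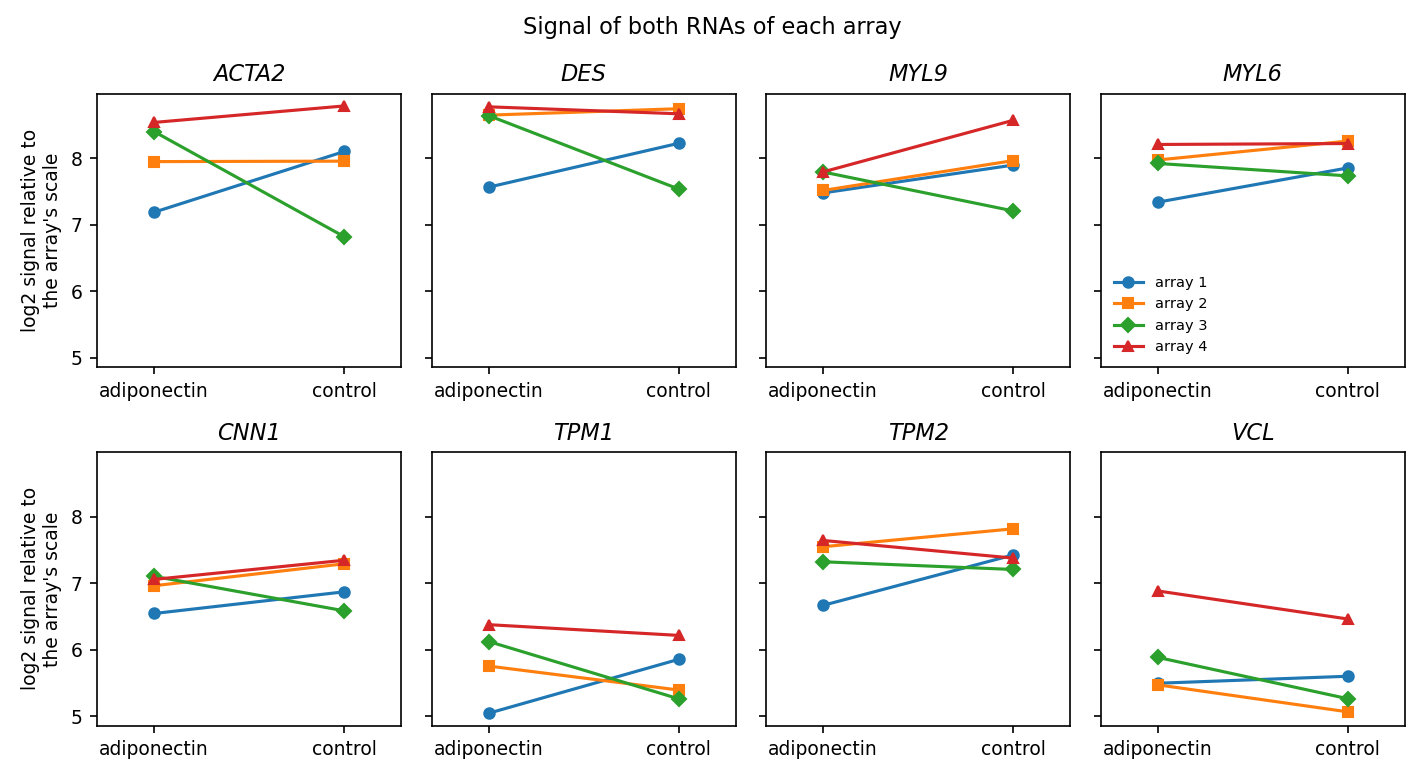
Each panel shows 1 gene, with the log2 signal relative to the array's scale in adiponectin-treated RNA on the left and control RNA on the right, and a line for each of the 4 arrays. The lines of arrays 1 and 3 slope in opposite ways in all 8 panels, and on array 3 the slope is steepest for ACTA2 and DES.

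Arrays 1 and 3 had the same dye orientation, and the labels do not name the slide of any array. Technical differences between these arrays were not tested. Control RNA, in Cy3 on both, was higher on array 1 than on array 3, and treated RNA, in Cy5 on both, was lower on array 1, for 8 of 8 genes. That combination was found for 22% of all tested probes. The levels of both RNAs thus differed in the direction of the opposite ratios. The share of each RNA depends on the scale set by each array and was not tested. The spread between probes of a gene on 1 array was smaller than the spread between arrays in each of the 7 genes with several tested probes. For ACTA2 the SD was 0.15 between probes and 1.15 between arrays, for TPM2 0.12 and 0.33, and for MYL6, where the spreads were closest, 0.17 and 0.23. An SD over arrays above 0.5 was found for 4 of 8 genes (ACTA2, DES, MYL9 and TPM1), against 24.2% of all tested probes and 14.7% of the bright probes described next.

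The 8 genes are among the brighter signals of the array, so their array medians were set beside the 985 other tested probes at least as bright as the dimmest of them, a comparison chosen after the values were seen. Those probes had median ratios of -0.02, 0.06, -0.02 and 0.03 on arrays 1 to 4, with 52.2% below 0 on array 1, 48.1% above 0 on array 3, and 23.2% both. With normexp background correction and loess in place of the scanner's normalisation, the median of the 8 genes on array 1 was -0.21, and that of the other bright probes was 0.19. On array 3 the values were 0.63 for the genes and 0.03 for the bright probes. All 8 genes kept their sign on both arrays under that processing. The size on array 1 depended strongly on it, with a median of -0.21 against -0.59 from the scanner ratio.

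**Figure D4:**
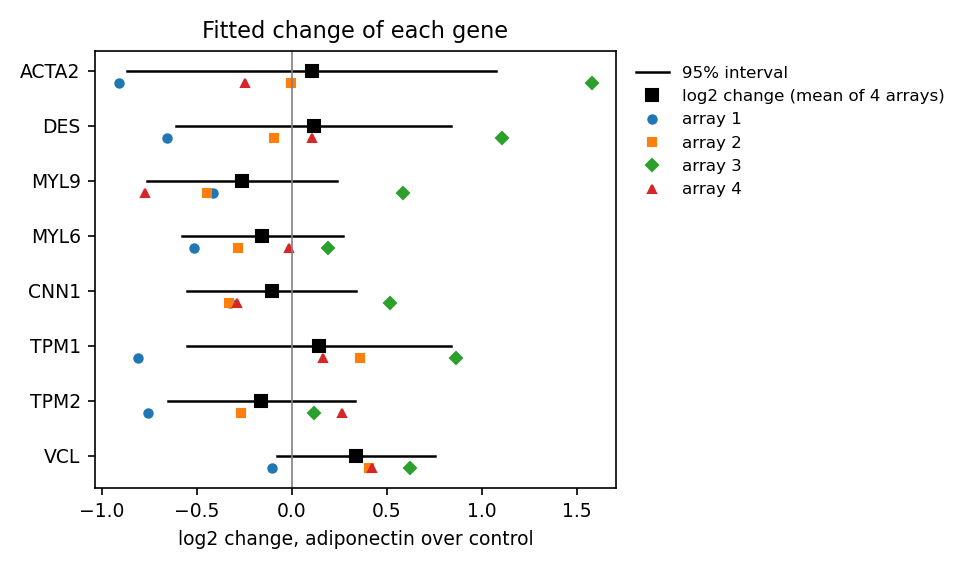
For each of the 8 genes the fitted log2 change of adiponectin-treated over control RNA (black square) is drawn with its 95% interval (line), and the 4 array ratios stand below it as coloured points. Every interval includes 0, VCL comes nearest to excluding it, and the points of array 1 and array 3 lie on opposite sides of 0 in each gene.

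The fitted changes depended on single arrays. Without array 3 the median of the 8 genes was -0.33, and without array 1 it was 0.31. ACTA2 stood at -0.52 without array 3 and at 0.73 without array 1, and DES at -0.33 and 0.55. None of the 8 was called in any omission, with a smallest limma adjusted p of 0.388 for ACTA2 without array 1. At an unadjusted p under 0.05 there were 4 genes above 0 without array 1 (ACTA2, DES, TPM1 and VCL), beside 4.87% of all tested probes. Without array 3 there were 2 below 0 (ACTA2 and MYL9), beside 4.93% of all tested probes. Without array 4, all 8 genes kept their direction. In such a fit, 1 dye orientation has a single array. That array is assumed to vary like the rest and has as much weight as the other pair. All 8 genes had already been seen to lie below 0 on array 1 and above 0 on array 3. Leaving out array 1 therefore raises their changes, and leaving out array 3 lowers them. The counts of 4 and 2 genes follow in part from that pattern, in genes not independent of each other. Set beside all tested probes, they are not a test of adiponectin.

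Other genes of the contractile machinery were listed by role, and none was called. Among 6 other thin filament proteins, fitted changes were above 0 for 3 and below 0 for 3, with medians of -0.33 on array 1 and 0.39 on array 3. The 6 include ACTA1 and ACTC1, which had the widest ratios there and whose signal shared with ACTA2 was not tested. SMTN, the smooth muscle protein smoothelin, stood at -0.50, -0.15, 0.48 and -0.16, while TPM3 stayed between -0.10 and 0.05. TMOD3, which caps the pointed ends of actin filaments, was at 0.37 ± 0.13 with array values of 0.38, 0.34, 0.30 and 0.48 (limma adjusted p = 0.856). TMOD3 was picked among genes whose ratios shared a sign on all arrays, so its lack of the array pattern of ACTA2 follows from that choice.

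MYLK, the kinase of the regulatory light chain, stood at -0.73, 0.30, 0.95 and -0.37, and its log2 change was 0.04 ± 0.30. It was not called.

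Of 6 tested genes of dense plaques, focal adhesions and intermediate filaments, 5 were above 0. ACTN1, an actin-crosslinking alpha-actinin, was at 0.36 ± 0.14, with array values of 0.15, 0.28, 0.54 and 0.47 (limma adjusted p = 0.856). PDLIM3, a binding partner of alpha-actinin and named here after its values were seen, was the 1 gene below 0, at -0.48 ± 0.14 with -0.32, -0.91, 0.08 and -0.77 (limma adjusted p = 0.856). MYOCD, the coactivator myocardin that drives smooth muscle genes, was at -0.06, -0.01, 0.39 and -0.15, and FHL1 at -0.97, 0.06, 1.16 and -0.18. The 14 tested genes of actin turnover had 10 above 0 and medians of -0.25 and 0.30 on arrays 1 and 3.

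Markers of other cell types also differed between arrays. Of 16 macrophage markers 9 were tested, and their median ratio was 0.52, -0.30, 2.22 and 0.63 on arrays 1 to 4, above 0 on array 1 where the contractile genes were below 0. The macrophage signals were summed before log2 was taken, as were those of the lists that follow. That value ranged from 2.75 to 4.72 in treated RNA, against 2.31 to 3.96 in control RNA. SIGLEC1 and LYZ did not reach the filter. The 5 tested stroma markers of 11 had 0.51, -0.28, -0.34 and -0.16, opposite in sign to the contractile genes on arrays 1 and 3, with summed levels from 7.09 to 7.67 in treated RNA, against 6.84 to 7.83 in control RNA. The 7 tested epithelial markers of 11 had -0.09, 1.24, -0.70 and 0.69, with sums from 3.23 to 5.05 in treated RNA, against 2.96 to 4.43 in control RNA. The median of the 7 tested endothelial markers of 12 stayed between -0.17 and 0.08, with sums from 4.20 to 5.43 in treated RNA, against 4.21 to 5.54 in control RNA. Single markers ranged wider, such as SELP at 1.92 and SELE at -1.46 on array 1. Both were dim in part, with SELP well above background on 4 arrays in treated and 3 in control RNA, and SELE on 3 and 2. The part of these cell types in the contractile gene ratios was not tested.

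Few markers of the remaining cell types were measured. RGS5, the 1 tested pericyte marker of 7, had ratios of -0.03, 1.89, 0.51 and 0.14. Only 3 of 11 lymphocyte markers and 4 of 7 adipocyte markers passed the filter, with array medians from -0.11 to 0.28 and from -0.56 to 0.01. Of 14 skeletal and cardiac muscle markers 3 passed, at medians of -0.71, -0.67, 0.11 and -0.27. The myosin heavy chains MYH1, MYH2, MYH4 and MYH7, which define striated muscle, had signals well over background on 2 arrays at most. No erythrocyte marker had a named probe.

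**Figure D5:**
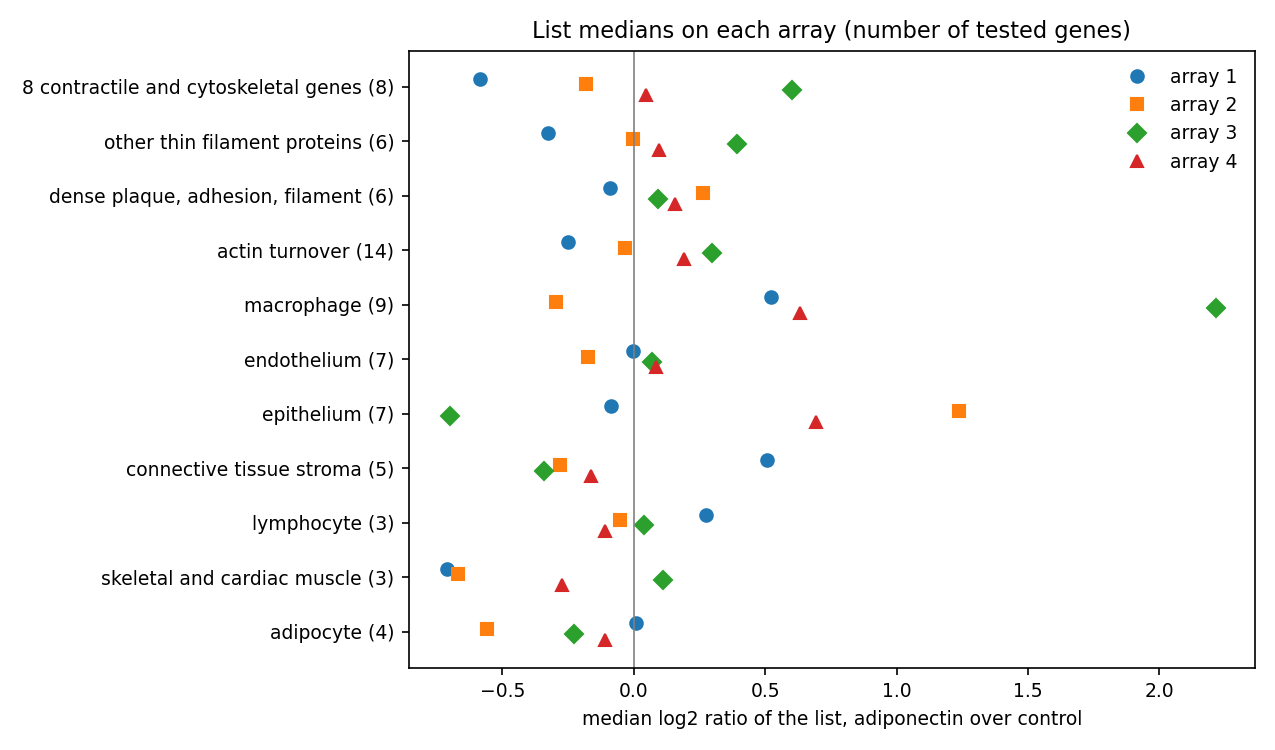
For each gene list reported here with at least 3 tested genes (number in brackets), the median log2 ratio of adiponectin-treated over control RNA is plotted for each of the 4 arrays. The contractile genes spread from -0.59 on array 1 to 0.60 on array 3, the macrophage markers reach 2.22 on array 3, and the stroma markers take the opposite order on those arrays.

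Among 2126 other named genes, the nearest to the median course of the 8 contractile genes over the 4 arrays, by Euclidean distance of the log2 ratios, were EIF4EBP2 (0.10), DLST (0.20), PIGK (0.23), TMUB1 (0.23) and CHRM3 (0.23). EIF4EBP2, a repressor of translation initiation, stood at -0.61, -0.25, 0.55 and 0.10. CHRM3, the M3 muscarinic acetylcholine receptor, stood at -0.54, -0.20, 0.76 and 0.20. The median distance was 1.02 over all other genes and 0.61 for the 8 genes from their own median. The course is the median of these same 8 genes, so a smaller distance for them is partly built in. MYL6 (0.44) and CNN1 (0.46) lay nearest to that median and ACTA2 (1.08) farthest.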

How the data were processed

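The authors' deposited scanner files were made with Agilent Feature Extraction 10.7.3.1, per the file headers. Per the file headers, they give a log10 ratio of Cy5 over Cy3 made from the processed signals. Per the file headers, the processed intensity of each channel was background-subtracted and dye-normalised before deposit. The deposited series table holds log2 ratios. For bright probes its slope against the scanner ratio was 1, -1, 1 and -1 on arrays 1 to 4, so it is treated over control, the direction that the dye fields of the labels give, although the labelling protocol describes treated RNA in Cy5 only.

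The log10 ratio was converted to log2 and turned to treated over control. This replaced the normexp and loess values of an earlier treatment of these arrays, which serve as an alternative. Spots marked as outliers were dropped and spots of a probe averaged. Testing required a value on all 4 arrays and, in either RNA, a signal well above background on 3 or more, which left 22129 of 43603 probes. RefSeq accessions were matched to symbols through a table of assembly Sscrofa11.1, which named 6700 probes and 3029 genes. No coordinates are given because the files name no build. The brightest tested probe stood for a gene. Levels are log2 processed intensity minus the mean of both channels' log2 75th percentile on that array.

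Ratios were fitted with limma 3.58.1 in R 4.3.3, with treatment and a dye coefficient per probe, two-sided, and Benjamini-Hochberg adjustment over all tested probes. Fold values are 2 to the power of the log2 change. The fit was tested on simulated data. Alternatives were normexp and loess, median centring, no dye term, no filter, the mean of all probes, the series table and leaving out each array. Named genes were all members with every probe, per other pathway list up to 2 genes with the smallest p among those whose 4 ratios shared a sign, and the 5 genes nearest to the members' median course. Other genes of the lists that the text names (SMTN, TPM3, ACTA1, ACTC1, MYLK, MYOCD, FHL1, PDLIM3, RGS5, SELP and SELE) were chosen after their values were seen. The members and lists were chosen with earlier results of these data known. Of the list of light chain kinase and phosphatase genes only MYLK is given, and the rest is not reported here.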

Additional observations from a re-analysis of the deposited data

Results flagged for a closer look

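A value apart from the 3 others of its set was found in 3 of 60 sets of 4 values, and about 3 are found by chance. For the brighter CNN1 probe, array 3 gave a ratio of 0.52, and the remaining arrays -0.33 to -0.29. For a dim TPM1 probe, array 3 gave a ratio of 0.63, and the remaining arrays -0.24 to -0.10. For DES in treated RNA, array 1 gave a level of 7.56, and the remaining arrays 8.64 to 8.77.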

How the results depend on the processing

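No contractile gene was called under any alternative. Every gene kept its direction with normexp and loess, median centring or the series table, but normexp and loess gave 0.19 for ACTA2, 0.28 for DES, -0.145 for MYL9, -0.07 for MYL6 and -0.016 for TPM2. The dye term, the filter and the rules on saturation could not move these values, since the dyes were balanced, the same probes passed and no spot was saturated. With the mean of all probes of a gene, DES stood at -0.056. Leaving out 1 array at a time gave ranges of -0.52 to 0.73 for ACTA2, -0.33 to 0.55 for DES, -0.51 to -0.01 for MYL9, -0.33 to 0.019 for MYL6, -0.32 to 0.10 for CNN1, -0.27 to 0.56 for TPM1, -0.38 to 0.057 for TPM2 and 0.15 to 0.52 for VCL. In each the lowest came without array 3 and the highest without array 1. The median of the 8 genes ran from -0.33 to 0.31. Over the whole array, 0 to 12 probes were called in these omissions, the 12 without array 3 and none of them from these genes. At an unadjusted p under 0.05, 1644 probes were higher and 1518 lower with no filter, against 838 and 425 with it. The fit already pairs the 2 RNAs of each array through their ratio. Pairing by gilt was not possible because the labels tie no array to a gilt.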
